A study of Medicago truncatula with 48 samples.

Results

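The transcripts described here are the 150 of 44316 nuclear *Medicago truncatula* A17 transcripts whose abundance was most concentrated in endosperm at the earliest stage sampled, S1, under standard temperature. They were chosen on scaled counts. A scaled count is a CPM value (counts scaled to a common library total) for which the 100 largest counts of each library are left out of the total, so that a few very abundant transcripts do not set the scale. Among the 10 groups of tissue and stage at 20 °C, a chosen transcript had its highest mean in endosperm S1, with a mean scaled count there of 10 to 2000. On the log2(mean + 1) scale it lay at least 1 above the next highest group. Of the 594 transcripts that met these conditions, the 150 with the largest gap to the next group were kept. The 24 libraries at 20 °C therefore chose them and serve here only as a description. The 24 libraries at 26 °C took no part in the choice and carry the tests.

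All 48 libraries came from dissected seed tissues of genotype A17, grown under standard temperature until flowering. From flowering the plants were held either under heat stress with days at 26 °C or under standard temperature with days at 20 °C, and the sources differ on the night temperatures. Endosperm and embryo were sampled at S1 (before desiccation tolerance), S2 (after it was acquired), S3 (at the onset of longevity) and S4 (after longevity was acquired), whereas seed coat was sampled at S1 and S2 only. Each group had 2 libraries of endosperm, 2 of seed coat or 3 of embryo. S1, S2, S3 and S4 were reached at 14, 17, 22 and 28 days after pollination (DAP) at 26 °C and at 17, 26, 36 and 44 DAP at 20 °C. A difference between the temperatures at one stage is thus also a difference in age, and these cannot be told apart. The libraries are of dissected bulk tissue, and nothing in the labels says that replicates came from separate plants. The p-values measure the spread between these libraries only, which may be technical.

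The endosperm is, with the embryo, a product of fertilization, and it surrounds and feeds the developing embryo. In legumes such as Medicago it is largely consumed as the embryo grows, and a thin layer with storage polysaccharides in its cell walls stays around the embryo in the mature seed. The seed coat is maternal tissue that lies against the endosperm. Early endosperm is known in plants for transcripts that are hardly made elsewhere, among them regulators, transporters and small secreted proteins. The gene table at hand held none of the 44473 identifiers, so the transcripts are named by identifier only. No product, role, marker list or sequence is given, and the label of the tissue could not be checked against known markers.

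The libraries held 17864494 to 18649177 estimated counts in endosperm, 17690405 to 20084649 in embryo and 21549778 to 53776178 in seed coat. The 100 largest counts took 18.7% to 39.9% of a library in endosperm, 41.5% to 79.5% in embryo and 18.2% to 30.1% in seed coat. Replicates of endosperm S1 lay close together for the 150 transcripts, with a median absolute log2 difference of 0.11 at 26 °C and 0.17 at 20 °C. The libraries of seed coat S1 at 20 °C differed from each other, and 141 of the 150 transcripts were higher in replicate 1. How many of all transcripts were higher in that replicate was not counted, so that nothing about the 150 is read from this. The scaled counts of the 150 in that group summed to 616 in replicate 1 and 279 in replicate 2. When the choice was repeated without replicate 1 of that group 144 of the 150 were found again, and without replicate 2 it was 147.

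At 26 °C, in the libraries that took no part in the choice, these transcripts were most abundant in early endosperm. Endosperm S1 was the highest of the 10 groups at 26 °C for 143 of the 150, which compares with 18.0% of the 30769 nuclear transcripts that reached the lowest level of the 150 in that group. In endosperm the median scaled count was 8.20 at S1 and 0.943 at S2, and it was 0.0896 at S3 and 0.0861 at S4. At S1 the values ran between 0.0729 and 866, with 134 of the 150 at 1 or more and 64 at 10 or more. On the log2(mean + 1) scale the median difference of S1 over S2 was 2.10, of S1 over S3 2.84 and of S1 over S4 2.82. These differences were above 0 for 149, 150 and 150 transcripts, while the median over all nuclear transcripts was 0 in each. The gap to the next highest group at 26 °C had a median of 1.99 and ran between -2.10 and 5.26, and it was at least 1 for 119 of the 150.

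**Figure D1:**
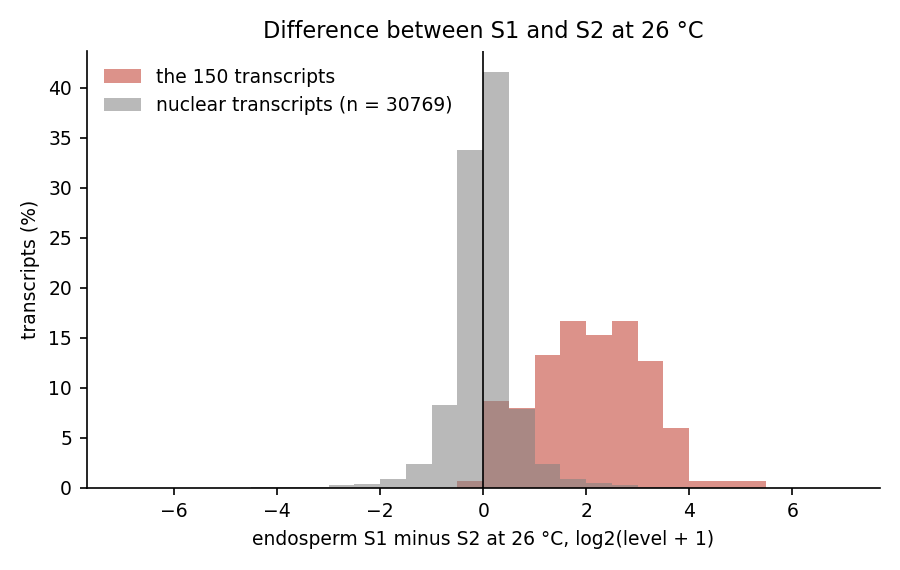
Difference between endosperm S1 and S2 at 26 °C on the log2(mean scaled count + 1) scale, as a share of the 150 transcripts (red) and of the 30769 nuclear transcripts that reached the lowest level of the 150 in endosperm S1 (grey). The red distribution lies almost wholly above 0, with 124 of 150 at 1 or more, against 4.23% of the grey one.

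Under standard temperature the 150 transcripts formed a sharp early peak, which is the pattern that chose them. Their median scaled count in endosperm was 53.8 at S1 and 1.09 at S2, and it was 0.131 at S3 and 0.0430 at S4. In embryo the group medians at 20 °C were at most 0.0902, and in seed coat they were 0.735 at S1 and 0.0155 at S2. The single values at endosperm S1 ran between 10.4 and 1949. Together the 150 transcripts took 2.21% and 2.33% of the scaled counts in the endosperm S1 libraries, against 0.106% and 0.104% in those of S2. The next highest group was endosperm S2 for 83 of them, seed coat S1 for 47 and one of the other groups for the rest. The gap to that group had a median of 3.93 and ran between 3.00 and 6.46 on the log2 scale. MtrunA17_Chr1g0176751, the last transcript taken, had a mean scaled count of 10.8 and a gap of 3.002, and MtrunA17_Chr6g0455661, the first left out, had 15.5 and 2.998.

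**Figure D2:**
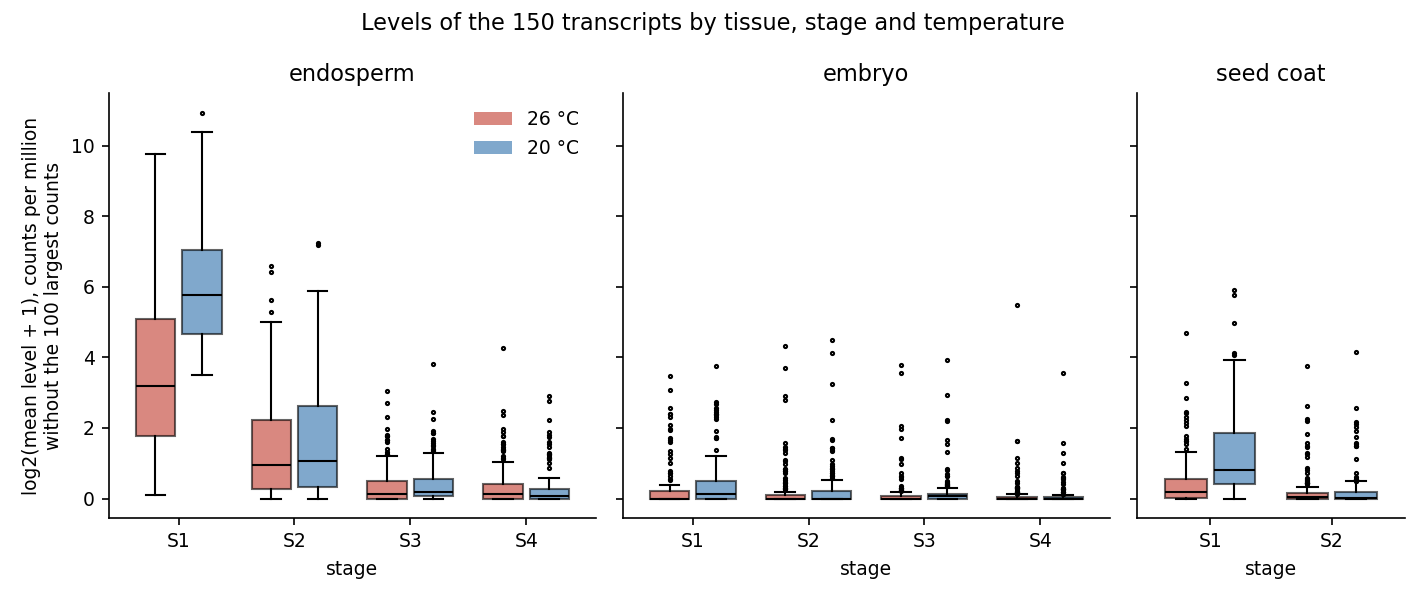
Mean levels of the 150 transcripts in each group, as log2(mean scaled count + 1), for endosperm, embryo and seed coat by stage, with 26 °C in red and 20 °C in blue. Boxes span the quartiles with the median as a line, whiskers reach the last value within 1.5 times the box height, and dots lie beyond. The endosperm S1 boxes have the highest median at each temperature, 8.20 at 26 °C and 53.8 at 20 °C as scaled counts. At 26 °C the S1 box overlaps that of endosperm S2, with a lower quartile of 2.43 at S1 and an upper quartile of 3.68 at S2.

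The transcripts with the 4 highest means at 20 °C S1 show the size of this peak. MtrunA17_Chr6g0449791 had 634 and 602 scaled counts at 26 °C S1, against 1952 and 1946 at 20 °C S1, the highest mean of that group. MtrunA17_Chr7g0226071 had 877 and 855 at 26 °C S1, against 1376 and 1298 at 20 °C S1, and was the highest of the 150 at 26 °C. Per kilobase of length this order was kept, with 1839 at 26 °C and 2839 at 20 °C for MtrunA17_Chr7g0226071 and 903 and 2849 for MtrunA17_Chr6g0449791. MtrunA17_Chr8g0391201 had 260 and 237 at 26 °C S1, against 1137 and 1251 at 20 °C S1. MtrunA17_Chr4g0024211 had 46.1 and 40.9 at 26 °C S1, against 882 and 1230 at 20 °C S1. In each of the 4 transcripts both 26 °C libraries lay below both 20 °C libraries. This held for all 150 and for 50.1% of the 13177 nuclear transcripts with mean scaled counts of 10 to 2000 at 20 °C S1. The 4 were picked by their high values at 20 °C, so that nothing is read from it. The 10 transcripts highest at 20 °C held 49.1% of the summed level of the 150 at 26 °C S1 and 43.4% at 20 °C S1.

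The difference of endosperm S1 from other groups at 26 °C was tested with edgeR's quasi-likelihood test on the 24 libraries at 26 °C, with p-values adjusted over the 27374 transcripts that entered the fit and a threshold of 0.01. The filter on low counts passed 137 of the 150, and a transcript could pass it through endosperm S1 alone. Against endosperm S2, 123 of the 150 were higher in S1 and 0 lower, whereas 8.4% of all transcripts tested were higher and 8.41% lower. Against S3, 131 were higher and 0 lower, beside 22.2% higher and 20.3% lower overall. Against S4, 128 were higher and 0 lower, beside 28% and 23.7%. In these 3 comparisons 0 transcripts were lower also at an unadjusted p below 0.05 and with DESeq2. Against embryo S1, 130 were higher and 1 lower, beside 37.4% and 29% of all transcripts, and against seed coat S1, 133 were higher and 1 lower, beside 31.6% and 32.9%. A total of 117 transcripts were higher in all 5 comparisons, and 2 of those tested were higher in none. These joint counts were not made over all transcripts tested, so that nothing is read from them.

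The test used bears on these counts. With DESeq2 71 of the 150 were higher against S2, 82 against S3, 81 against S4, 90 against embryo S1 and 88 against seed coat S1, beside 10.7%, 22.3%, 26%, 30.9% and 28.7% of the transcripts that received an adjusted p-value. In the comparison with S2, 40 of the 123 transcripts called by edgeR received no adjusted p-value from DESeq2 and 12 were above the threshold. In the other 4 comparisons most of the calls lost were above the threshold. Against S3, S4, embryo S1 and seed coat S1 these were 39, 43, 39 and 44, while 10, 4, 1 and 1 received no adjusted p-value.

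The 10 transcripts with the largest gap at 20 °C were all higher at S1 than at S2 at 26 °C, with log2 fold changes between 2.81 and 5.50 and adjusted p-values of at most 0.00244 (edgeR). In the same test 123 of the 150 and 8.4% of all transcripts tested were higher. MtrunA17_Chr8g0391201 had 260 and 237 scaled counts at S1 and 5.49 and 5.57 at S2, a log2 fold change of 5.50 (SE 0.30, adjusted p 4.30e-09). MtrunA17_Chr6g0453791, first by its gap, had 26.1 and 26.7 at S1 and 2.74 and 2.05 at S2, a log2 fold change of 3.47 (SE 0.28, adjusted p 1.14e-07). The S1 libraries lay far above those of S2 in both. MtrunA17_Chr4g0024201 was the weakest of the 10, with 2.63 and 2.08 at S1 and 0.262 and 0.432 at S2. Its call was lost in the fit of all 48 libraries (log2 fold change 2.81, adjusted p 0.0221 by edgeR) and without any one of its 4 libraries, with log2 fold changes between 2.47 and 3.24. In the other 7 the S1 means at 26 °C ran between 9.62 scaled counts in MtrunA17_Chr8g0376581 and 201 in MtrunA17_Chr8g0367691.

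**Figure D3:**
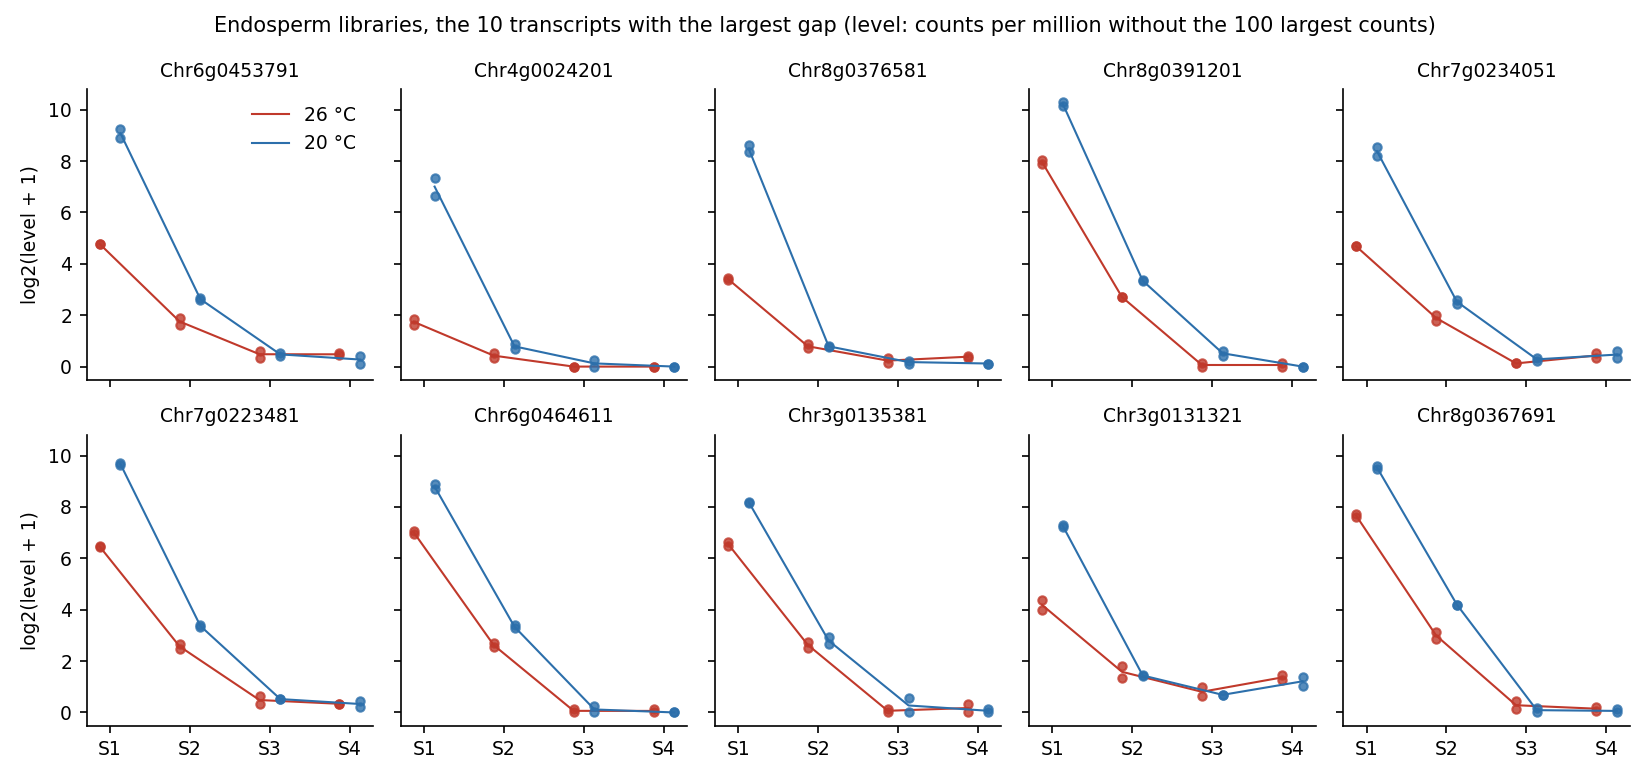
Levels of the 10 transcripts with the largest gap in each endosperm library, as log2(scaled count + 1) against stage, with 26 °C in red and 20 °C in blue. Points are single libraries and lines join the means of 2 libraries. In each panel the S1 points are the highest at their temperature and the 26 °C S1 points lie below the 20 °C S1 points.

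Beyond these, the steepest and the shallowest differences between S1 and S2 at 26 °C were found in transcripts of moderate or low abundance. MtrunA17_Chr3g0136871 had 11.6 and 11.5 scaled counts at S1 and 0.0807 and 0.164 at S2 (log2 fold change 6.44, SE 0.67, adjusted p 1.14e-06 by edgeR). MtrunA17_Chr7g0251671 had 11.2 and 11.3 at S1 and 0.0859 and 0.246 at S2 (log2 fold change 6.02, SE 0.62, adjusted p 7.47e-05 by edgeR, 0.446 by DESeq2). MtrunA17_Chr5g0435421 had 5.04 and 3.43 at S1 and 0.0807 and 0 at S2 (log2 fold change 6.34, SE 0.80, adjusted p 1.11e-05 by edgeR). In all of these S2 was close to 0.

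MtrunA17_Chr4g0046231 and MtrunA17_Chr1g0178931 had no count in either S2 library at 26 °C. Against the level that 3 counts over that group would give, they were at least 12.3-fold and 9.26-fold higher at S1. MtrunA17_Chr4g0046231 had 1.38 and 1.62 scaled counts there and MtrunA17_Chr1g0178931 had 1.23 and 1.03. At the other end, 5 of the transcripts tested gave the smallest differences. MtrunA17_Chr3g0096001 had 0.217 and 0.0735 at S1 and 0.323 and 0.246 at S2, with a log2 fold change of -0.89 (adjusted p 0.543 by edgeR). MtrunA17_Chr4g0021191 had 1.34 and 1.84 at S1 and 1.40 and 1.31 at S2, so that its libraries overlapped. MtrunA17_Chr7g0245411, MtrunA17_Chr3g0086021 and MtrunA17_Chr5g0446821 had log2 fold changes of 0.29, 0.46 and 0.77 and did not pass the test, with adjusted p-values of 0.829, 0.579 and 0.401.

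The 7 transcripts whose highest group at 26 °C was not endosperm S1 had little left in that group. Of these, 4 were highest in seed coat and 3 in embryo. MtrunA17_Chr3g0096001 had 0.217 and 0.0735 scaled counts in endosperm S1 and 3.95 and 3.89 in seed coat S1 at 26 °C (log2 fold change -4.86, SE 0.63, adjusted p 1.41e-06 by edgeR). In seed coat S1 at 20 °C it had 0.294 and 0.257, so that it was higher in both seed coat libraries of 26 °C. MtrunA17_Chr6g0467901 had 3.26 and 2.64 in endosperm S1 and 4.62 and 4.18 in seed coat S1 at 26 °C, a difference that did not pass the test (adjusted p 0.0305 by edgeR). Its seed coat S1 libraries at 20 °C held 5.88 and 5.99, above those of 26 °C.

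MtrunA17_Chr6g0478051 had 0.796 and 0.808 in endosperm S1 and 1.74, 2.58 and 2.61 in embryo S1 at 26 °C (log2 fold change -1.80, SE 0.49, adjusted p 0.00253 by edgeR). This call was lost without either of the endosperm S1 libraries, with the replicate number as a block and with scaling by library size only. MtrunA17_Chr4g0021191 was highest in seed coat S2, with 2.43 and 2.69. MtrunA17_Chr8g0370121, MtrunA17_Chr4g0023991 and MtrunA17_Chr7g0243851 had means of at most 0.292 in endosperm S1 at 26 °C and at most 0.506 in any group of that temperature. MtrunA17_Chr4g0023991 and MtrunA17_Chr7g0243851 were named after their values were seen.

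Between the temperatures, all 150 transcripts were lower in endosperm S1 at 26 °C than at 20 °C. The libraries did not overlap in any of them, with both 26 °C libraries below both 20 °C libraries. The same held for 50.1% of the 13177 nuclear transcripts with mean scaled counts of 10 to 2000 at 20 °C S1, and the mean was lower at 26 °C in 58.7% of these. High values in the 20 °C libraries chose the 150, so that the counts are a description and nothing is read from them. The median log2 difference was -2.36, with a range of -5.30 to -0.30, against -0.09 in the 13177. With a pseudocount of 10 in place of 1 the median of the 150 was -1.49. The 444 transcripts that met the same conditions with a smaller gap had a median of -1.13, and 434 of them were lower. Together the 150 took 0.626% and 0.602% of the scaled counts in the S1 libraries at 26 °C, against 2.21% and 2.33% at 20 °C. In bulk tissue fewer cells of a type and less RNA per cell cannot be told apart.

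**Figure D4:**
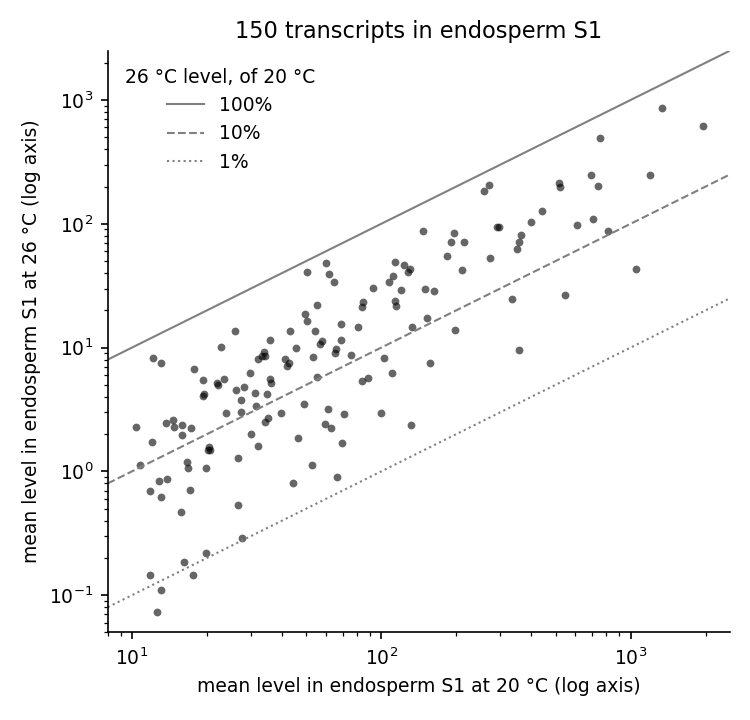
Mean scaled count of each of the 150 transcripts in endosperm S1 at 26 °C (vertical) and at 20 °C (horizontal), both on log axes. Lines mark 100%, 10% and 1% of the 20 °C level. All points lie below the line of 100%, between 0.577% and 80.9% of the 20 °C level.

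The size of this difference varied widely among the 150. Across the transcripts, levels at S1 in both temperatures had a Spearman's rho of 0.828 (n = 150 transcripts, which are not independent replicates and differ in length and abundance). The 20 °C levels took part in the choice and no rho was computed over other transcripts, so that nothing is read from this value. The level at 26 °C was a median of 17.3% of the level at 20 °C, with quartiles of 7.07% and 28.1%. In 12 transcripts it was 50% or more, in 48 it was 10% or less and in 27 it was 5% or less. Other transcripts were not counted at these limits, and the 20 °C level chose the 150, so that these counts are a description only.

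The highest shares were those of MtrunA17_Chr1g0151931, MtrunA17_Chr3g0095811 and MtrunA17_Chr3g0095821, with 80.9%, 79.9% and 75.7%. MtrunA17_Chr1g0151931 had 43.1 and 38.6 scaled counts at 26 °C S1, against 50.2 and 50.7 at 20 °C S1. MtrunA17_Chr3g0095821 had 210 and 200, against 294 and 246. MtrunA17_Chr4g0066571 kept 71.4%, with 189 and 179 at 26 °C S1, against 286 and 229 at 20 °C S1, and was the one of these that also had counts late. In endosperm S4 it had 23.2 and 13.4 at 26 °C, against 5.28 and 6.38 at 20 °C, and in embryo S4 its mean was 43.7 at 26 °C, against 10.7 at 20 °C. These 4 were named after their values were seen.

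The lowest shares were those of MtrunA17_Chr7g0262251, MtrunA17_Chr3g0096001 and MtrunA17_Chr2g0282441, with 0.577%, 0.828% and 0.845%. MtrunA17_Chr7g0262251 had 0.0724 and 0.0735 scaled counts at 26 °C S1, which is 1 count in each library, against 9.87 and 15.4 at 20 °C S1. Among abundant transcripts, MtrunA17_Chr8g0376581 stood at 2.69%, with 9.92 and 9.33 at 26 °C S1, against 324 and 391 at 20 °C S1. MtrunA17_Chr6g0453791 stood at 4.84%, with 26.1 and 26.7, against 477 and 612. Both were thus among the transcripts with the largest gap at 20 °C and among the 27 with the least left at 26 °C. MtrunA17_Chr7g0262251 and MtrunA17_Chr2g0282441 were likewise named after their values were seen.

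The 12 transcripts with 50% or more and the 27 with 5% or less had overlapping levels under standard temperature. The median in the 12 was 44.4 scaled counts at 26 °C S1, against 63.2 at 20 °C S1, and in the 27 it was 1.13, against 44.1. The level at S2 as a share of that at S1 had a median at 26 °C of 9.67% in the 12 and 10.9% in the 27. At 20 °C it was 8.01% in the 12 and 0.423% in the 27. Within the 20 °C S1 pair, replicate 2 over replicate 1 had a median log2 ratio of -0.19 in the 12 and 0.34 in the 27, and of -0.0004 in the 13177 nuclear transcripts. Over all 150, 61 were higher in replicate 2 at 26 °C and 107 at 20 °C. Of the 13177, 49.9% were higher in replicate 2 at 20 °C, and their share at 26 °C was not counted. The groups and both of the 20 °C measures rest on the same 20 °C S1 libraries, and what part this has in the contrast was not tested.

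After S1 the median difference between the temperatures in endosperm was small. The median log2 difference of 26 °C over 20 °C was -0.14 at S2, with 98 transcripts (65.3%) lower and 47 higher, against -0.06 and 58.9% lower in the 13177. It was 0 at S3, where 72 (48%) were lower and 49 higher, against -0.08 and 61.3% lower in the 13177. At S4 it was 0.02, with 32 (21.3%) lower and 78 higher, against 0.03 and 45.1% lower in the 13177. These stages were low at both temperatures. At S2 the 150 took 0.0761% and 0.0688% of the scaled counts at 26 °C, against 0.106% and 0.104% at 20 °C. The level at S2 was a median of 9.56% of that at S1 at 26 °C and 2.34% at 20 °C, with a Spearman's rho between the temperatures of 0.549 over the 150 transcripts. The rule asked for a high S1 and low other groups at 20 °C, so that the 20 °C share was low by choice. These shares were not computed over other transcripts, and nothing is read from their contrast. At the one age sampled at both temperatures, 17 DAP, endosperm was at S2 at 26 °C and at S1 at 20 °C. There the median was 0.943 at 26 °C, against 53.8 at 20 °C, and the median log2 difference was -4.42, with a range of -7.69 to -2.32. The 20 °C S1 level chose the transcripts, and this difference was not computed over the 13177, so that it is a description only.

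In embryo most of the 150 transcripts were near 0 at both temperatures, with a few exceptions. From S1 to S4, 16, 11, 7 and 5 of them reached a mean scaled count of 1 at 26 °C, against 19, 11, 7 and 4 at 20 °C. The highest means by stage were 10.2, 19.2, 12.8 and 43.7 at 26 °C, against 12.5, 21.4, 14.3 and 10.7 at 20 °C. At S1 and 26 °C the highest value belonged to MtrunA17_Chr4g0024211, which had 46.1 and 40.9 scaled counts in endosperm S1 and 9.65, 10.8 and 10.1 in embryo S1 (log2 fold change 1.81, SE 0.18, adjusted p 1.62e-08 by edgeR). Its embryo S1 libraries at 20 °C had 4.10, 3.96 and 4.85. MtrunA17_Chr4g0052711 was the highest in embryo S2, with 18.6, 18.0 and 21.0 at 26 °C, against 20.0, 19.7 and 24.5 at 20 °C, so that the libraries overlapped. MtrunA17_Chr4g0066571 was the highest in embryo S4, with 40.0, 33.8 and 57.2 at 26 °C, against 9.48, 10.4 and 12.3 at 20 °C, and all 3 libraries of 26 °C lay above those of 20 °C. MtrunA17_Chr4g0052711 was named after its values were seen.

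In seed coat S1 the level was a median of 1.03% of that in endosperm S1 at 26 °C, with quartiles of 0.388% and 2.60%. At 20 °C it was a median of 1.40%, with quartiles of 0.963% and 2.12%. The summed scaled count of the 150 in seed coat S1 was 126 and 90.2 at 26 °C, against 616 and 279 at 20 °C, so that the libraries did not overlap. In the endosperm S1 libraries it was 6257 and 6024 at 26 °C, against 22148 and 23338 at 20 °C. Whether endosperm RNA reached the seed coat libraries was not tested. MtrunA17_Chr4g0050181 was the exception among the abundant transcripts, with 115 and 104 in endosperm S1 and 23.5 and 25.8 in seed coat S1 at 26 °C (log2 fold change 1.92, SE 0.22, adjusted p 1.59e-07 by edgeR). In seed coat S1 at 20 °C it had 56.8 and 49.6, which was nearly equal between the replicates.

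By the chromosome named in their identifiers, the 150 were spread over all 8 chromosomes, with the most on chromosome 4 (27, or 18%, against 15.7% of nuclear transcripts) and the fewest on chromosome 2 (14, or 9.33%, against 11.8%). On chromosome 6 there were 17, or 11.3%, against 8.03%. With fewer than 5 other transcripts between them in identifier order, 41 of the 150 fell into 19 runs, and 16 of these runs held identifiers with none between. The 444 transcripts with a smaller gap formed 46 such runs. How many of all transcripts would fall into runs was not counted, so that the 41 are a description only. Identifier order was used because no map positions were at hand. In 13 of the 19 runs, or 68.4%, the 26 °C level as a share of the 20 °C level at S1 differed by at most 1.5 times between the highest and the lowest transcript. Runs formed in the same way among the 444 transcripts with a smaller gap gave 31 of 46, or 67.4%, so that the share was near that of other transcripts. Of all pairs among the 150, neighbours or not, 23.1% differed by at most 1.5 times. Reads divided among similar transcripts may bear on part of these runs. Of the 9 runs that held whole counts only, 6, or 66.7%, differed by at most 1.5 times. Of the 7 runs with a transcript in which most nonzero values were not whole, it was 5, or 71.4%. The part of divided reads in the closeness of runs was not tested.

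In the run of MtrunA17_Chr3g0135381, MtrunA17_Chr3g0135401 and MtrunA17_Chr3g0135411 the 26 °C level was 32.3%, 36.1% and 38.0% of the 20 °C level, and 95.2%, 54.5% and 68.8% of their nonzero values were not whole numbers. In MtrunA17_Chr6g0460931, MtrunA17_Chr6g0460941 and MtrunA17_Chr6g0460951 it was 7.73%, 6.54% and 5.62%, and all values were whole. MtrunA17_Chr6g0460951 was the most abundant of these, with 6.59 and 5.80 scaled counts at 26 °C S1, against 102 and 119 at 20 °C S1. In MtrunA17_Chr7g0245411, MtrunA17_Chr7g0245421 and MtrunA17_Chr7g0245431 it was 7.40%, 16.0% and 19.9%, and 61.1%, 82.6% and 83.3% of their nonzero values were not whole. Values that are not whole are a sign that reads were divided among similar transcripts, so that the split within the first and the last of these runs is uncertain.

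Among the pairs, MtrunA17_Chr1g0177641 and MtrunA17_Chr1g0177651 stood at 2.42% and 5.84%, and MtrunA17_Chr2g0299351 and MtrunA17_Chr2g0299361 at 13.8% and 10.5%. MtrunA17_Chr2g0299361 had 5.28 and 6.32 scaled counts at 26 °C S1, against 48.6 and 61.8 at 20 °C S1, and 0.242 and 0.409 at 26 °C S2. Neither pair had values that were not whole. The widest contrast between neighbours was that of MtrunA17_Chr8g0370121, at 1.11%, and MtrunA17_Chr8g0370131, at 17.5%, a pair picked after its values were seen.

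**Figure D5:**
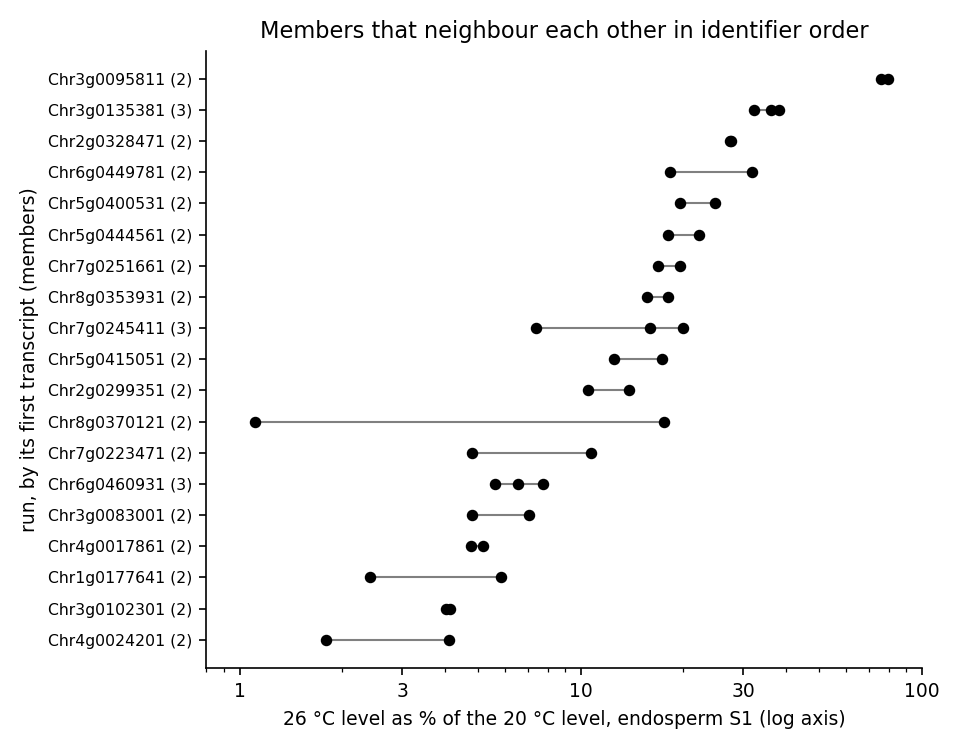
The 26 °C level in endosperm S1 as a percentage of the 20 °C level (log axis) for the 41 transcripts in 19 runs of neighbours in identifier order. Each row is a run, named by its first transcript with the number of transcripts in brackets, each point is a transcript, and a line joins the points of a run. In 13 rows the points differ by at most 1.5 times, and the row of MtrunA17_Chr8g0370121 spans 1.11% to 17.5%.

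The 150 were short transcripts. Their lengths ran between 207 and 4337 bases, with a median of 804, against 1954 in the 13177 nuclear transcripts of the same range of abundance and 1285 in all nuclear transcripts. Of the 150, 19.3% were shorter than 500 bases, against 2.42% and 16.4%. Because the rule used counts that are not divided by length, a short transcript needs more molecules to reach the same scaled count. With counts per kilobase in the rule, 128 of the 150 were found again. In 61 of the 150, or 40.7%, an estimated count in endosperm S1 at 20 °C was not a whole number, against 34.3% of the 13177. The values of these transcripts depend on how reads that match several transcripts were divided.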

How the data were processed

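RNA of embryo, endosperm and seed coat was sequenced as short single reads. The authors quantified them on the A17 transcriptome, version 5, with Salmon in quasi-mapping mode and deposited estimated counts for each transcript, not normalized; replicates were not pooled, and whether strand was used is not given in the sources used here. Overlapping and antisense transcripts, and near-identical copies, are therefore uncertain. All 48 columns were assigned to samples by name.

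Scaled counts, group means and log2(mean + 1) values were computed from the deposited values. The estimated counts, rounded to integers, were tested with edgeR 4.0.16 in R 4.3.3 (filterByExpr with minimum count 10 and minimum total count 15, TMM, 1 mean per group, 24 libraries at 26 °C, Benjamini-Hochberg adjustment, adjusted p-value below 0.01 as in the study). Standard errors were derived from the F statistic. The fit was tested on simulated data. Alternatives were other scalings and filters, DESeq2 1.42.0, a replicate block, fits of other libraries, other pseudocounts and leaving out each library.

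The transcripts named are the 10 with the largest gap, the 10 with the highest mean at 20 °C and those at the edge of the rule. Also named are the 5 with the largest and 5 with the smallest S1 over S2 difference at 26 °C. Up to 5 with another peak at 26 °C and the 5 longest runs of neighbours were added. Runs of equal length were taken in identifier order. Others are marked. The 150 transcripts and these lists were chosen with earlier results of these data known. Lists by gene product could not be applied. The reads carry no molecular identifiers, so bounds from counts cover counting error only.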

Additional observations from a re-analysis of the deposited data

Results flagged for a closer look

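The difference between the temperatures ran in opposite directions at different stages of endosperm. Averaged over the 150 transcripts as log2(scaled count + 1), it was -2.52 at S1 and -0.23 at S2, with both 26 °C libraries below both 20 °C libraries at each stage, and 0.093 at S4, with both 26 °C libraries above both 20 °C libraries. At S3 it was -0.03 and the libraries overlapped. The 13177 nuclear transcripts with mean scaled counts of 10 to 2000 at 20 °C S1 changed sign in the same way, with median log2 differences of -0.09 at S1, -0.06 at S2, -0.08 at S3 and 0.03 at S4, where 7144 of them were higher at 26 °C. The median of the 150 at S4 was 0.02. The difference between S4 and either S1 or S2 was not tested, since the 20 °C libraries at each stage took part in choosing the transcripts. At S4 the median scaled count was 0.0861 at 26 °C and 0.0430 at 20 °C, near the level of 1 count in a library.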

How the results depend on the processing

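With DESeq2 the numbers of transcripts higher in endosperm S1 at 26 °C were 71 against S2, 82 against S3, 81 against S4 and 88 against seed coat S1, in place of 123, 131, 128 and 133. The single transcript lower than in embryo S1 became 0 with library size only, with the replicate block and without either endosperm S1 library, giving 0 to 1 over the libraries left out. The single transcript lower than in seed coat S1 became 2 at an adjusted p-value below 0.05 and in the fit of all 48 libraries. Leaving out 1 library gave 86 to 90 higher against S2, 118 to 125 against S3 and 124 to 127 against S4, the lone library being assumed to vary like the other groups. Replicate numbers did not pair the libraries, with correlations of deviations between -0.0278 and 0.0536, and the replicate block gave 119, 129, 128, 128 and 133 higher in the 5 comparisons. The median log2 difference between the temperatures at S1 was -2.42 with library size only, -2.24 with TMM, -2.51 with a pseudocount of 0.1 and -1.49 with a pseudocount of 10, and -2.44 to -2.32 over the libraries left out. At S2 it was -0.082 with TMM, -0.35 and -0.020 with pseudocounts of 0.1 and 10, and -0.15 to -0.10 without single libraries. At S3 it was -0.0016 with library size only. At S4 it was 0.011 with library size only, 0.010 with TMM, 0.045 and 0.0019 with those pseudocounts, and 0 to 0.030 without single libraries. The background median shifted from -0.09 to -0.19 at S1 and from -0.06 to -0.20 at S2 with library size only. Changing the rule found between 105 (pseudocount of 10) and 149 (group median) of the 150 again; leaving out the libraries of seed coat S1 was added after seeing the data. The causes were not tested. No value reversed. At 17864494 or more counts in an endosperm library, transcripts at 0 in a group are limited only to below 3 counts.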
